A study of Mus musculus with 24 samples.

Results

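Serotonin receptor RNA was measured in sorted dorsal root ganglion (DRG) cells of control and Nav-Tsc2 mice. The receptors were the 9 genes Htr1a, Htr1b, Htr1d, Htr2a, Htr2b, Htr3a, Htr3b, Htr4 and Htr7, found by gene symbol among the 47643 gene identifiers counted in every library. All 9 were present, and 8 of them, all but Htr2b, had enough counts to be tested among 17178 genes. Control mice were Nav1.8-Cre with 1 floxed and 1 wild-type Tsc2 allele and a Rosa26-ZsGreen reporter (Tsc2 flox/+), and Nav-Tsc2 mice carried Nav1.8-Cre and the reporter with 1 floxed and 1 null allele (Tsc2 flox/null). Controls therefore also carried the Cre and could lose 1 copy of Tsc2 in the same cells. Both groups hold more than 1 neuron type, because Nav1.8 drives the Cre in most nociceptors with unmyelinated fibers as well as in a share of A-fiber neurons. All mice were 8 to 9 weeks old and of mixed C57BL/6 and AJ background, with 4 mice per genotype, replicates 1 and 2 male and replicates 3 and 4 female. Every mouse had a sciatic nerve crush 3 days before, and GFP-positive cells of the uninjured side's L4 ganglia were sorted into 3 libraries of 100 cells each, giving 24 libraries.

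Serotonin released by platelets and mast cells at a site of injury, and by neurons descending from the brainstem, acts on sensory neurons through several receptor classes. The Htr3 genes encode subunits of a cation channel opened by serotonin, and the Htr3b subunit needs Htr3a to form a working channel. All other classes are coupled to G proteins. Htr1 and Htr5 receptors act through Gi/o and lower cAMP, Htr2 receptors act through Gq and phospholipase C, and Htr4, Htr6 and Htr7 act through Gs and raise cAMP. In sensory neurons the Gi/o-coupled receptors are known for reducing transmitter release, and Htr1b, Htr1d and Htr1f are the targets of triptan drugs used in migraine, while the channel and the Gq- and Gs-coupled receptors are known for excitation or sensitization.

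The labels were checked first. Tsc2, the targeted gene, had 13.4, 24.7, 21.5 and 24.1 CPM (the standard count rate relative to library size) in control replicates 1 to 4 and 8.70, 8.51, 7.30 and 10.95 CPM in Nav-Tsc2 replicates 1 to 4, a log2 fold change of -1.24. The groups did not overlap. Scn10a, which encodes Nav1.8, had means of 670.4 and 607.8 CPM. The 3 libraries of a mouse together held 47959617 to 61290435 gene counts. Single libraries held 12210899 to 28641787 counts in controls and 8339220 to 34228180 in Nav-Tsc2 mice, and the deepest and the shallowest library were both from Nav-Tsc2 replicate 3. Reads were amplified without molecular identifiers, so counts measure read number and not molecules. Because a library pooled 100 cells, a lower value can mean fewer cells of a receptor-bearing type or less RNA per cell, and these cannot be told apart.

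Sequence just before the transcription start is shown for the 5 members that were called between genotypes and had a RefSeq promoter entry, so that the genes that fell together can be compared. Each run is read 5′ to 3′ on the gene's strand of GRCm38.p6 and ends before both the RefSeq and the GENCODE start of the gene. Capitals mark matches, on either strand, to the motifs searched: E-box CACGTG, homeodomain core TAATTA, RUNX core TGTGGT, cAMP response element core TGACG, TATA box TATAAA and GC box GGGCGG. The windows are chr13:105443443-105443638 (plus strand) for Htr1a, chr9:81633833-81634082 (minus strand) for Htr1b, chr4:136423274-136423523 (plus strand) for Htr1d, chr14:74640624-74640839 (plus strand) for Htr2a and chr9:48964991-48965240 (minus strand) for Htr3b.
Htr1a: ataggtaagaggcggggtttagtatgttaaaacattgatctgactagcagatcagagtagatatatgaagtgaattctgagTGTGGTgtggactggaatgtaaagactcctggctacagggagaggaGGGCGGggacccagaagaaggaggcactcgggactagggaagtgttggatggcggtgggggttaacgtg
Htr1b: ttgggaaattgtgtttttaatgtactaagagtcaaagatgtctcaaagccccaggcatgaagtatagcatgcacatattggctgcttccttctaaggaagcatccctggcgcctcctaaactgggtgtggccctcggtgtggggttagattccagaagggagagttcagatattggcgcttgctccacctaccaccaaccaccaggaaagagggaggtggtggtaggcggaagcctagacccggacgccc
Htr1d: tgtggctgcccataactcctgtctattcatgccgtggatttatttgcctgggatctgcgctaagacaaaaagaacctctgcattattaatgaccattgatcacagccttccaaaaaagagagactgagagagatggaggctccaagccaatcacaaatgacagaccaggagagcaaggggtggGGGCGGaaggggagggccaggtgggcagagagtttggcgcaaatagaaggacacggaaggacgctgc
Htr2a: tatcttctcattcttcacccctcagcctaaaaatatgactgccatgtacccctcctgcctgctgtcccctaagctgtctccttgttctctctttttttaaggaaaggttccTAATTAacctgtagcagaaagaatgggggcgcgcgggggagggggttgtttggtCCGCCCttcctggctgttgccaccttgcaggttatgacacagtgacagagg
Htr3b: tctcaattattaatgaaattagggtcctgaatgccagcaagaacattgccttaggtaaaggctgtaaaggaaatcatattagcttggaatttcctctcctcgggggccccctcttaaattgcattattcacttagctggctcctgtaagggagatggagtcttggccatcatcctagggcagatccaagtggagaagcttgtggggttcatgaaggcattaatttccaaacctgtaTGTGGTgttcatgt

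No motif was shared by all 5 windows. Within 250 bases before the RefSeq start, a RUNX core lay at -14 in Htr3b and at -169 in Htr1a, and 14.05% of 32851 promoters in the RefSeq table hold that motif in the same span. A GC box lay at -123 in Htr1a, -85 in Htr2a and -67 in Htr1d at the start shown, a motif held by 32.7% of promoters. The homeodomain core, held by 4.84% of promoters, lay at -139 in Htr2a. None of the motifs was found in the Htr1b window, and neither the E-box (6.02% of promoters) nor the TATA box (12.4%) was found in any of the 5. The GC content of the 250 bases was 44.0% for Htr3b, 50.4% for Htr1a, 51.6% for Htr1d, 52.4% for Htr1b and 52.8% for Htr2a, against a median of 52.4% over all promoters. RefSeq gives Htr1d another start, inside the gene, whose window has 72.4% GC and GC boxes at -245, -99 and -79. The cAMP response element core, held by 17.8% of promoters, was found in none of these 5 and in 1 other member, Htr7, at -87. Htr3a had no entry.

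Htr3a (chr9:48899213-48911099, minus strand) and Htr3b (chr9:48935008-48964990, minus strand) are neighboring genes on chromosome 9, which also holds Htr1b (chr9:81628291-81633828, minus strand).

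Of the 8 tested members, 6 were lower in Nav-Tsc2 mice and none was higher (edgeR quasi-likelihood test, adjusted p under 0.05 with a log2 difference of more than 0.5 either way). Over all genes tested, 8.00% were called lower and 9.12% higher. Htr1a, Htr1b, Htr1d, Htr2a, Htr3a and Htr3b fell, and in each of them every Nav-Tsc2 mouse was below every control mouse, as in 12.3% of all genes tested. The median log2 fold change of the 8 members was -2.66, beside 0.01 over all genes. Htr4 and Htr7 were not called.

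**Figure D1:**
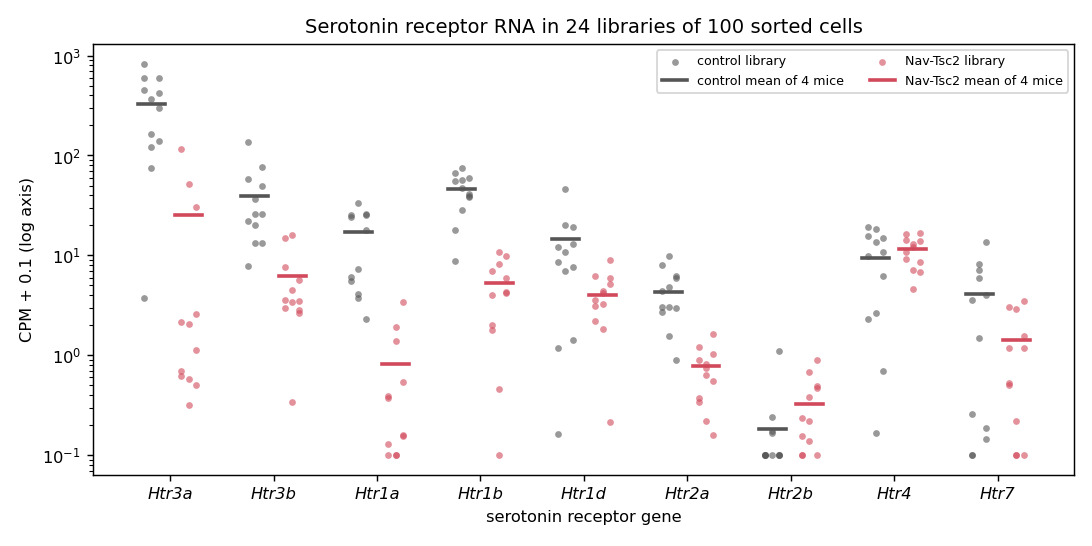
CPM of each member in every library (points, 12 per genotype) on a log axis after adding 0.1, with horizontal bars at the mean of 4 mice. For Htr1a, Htr1b, Htr3a and Htr3b most Nav-Tsc2 libraries lie below the control libraries, while the libraries overlap for Htr4, Htr7 and Htr2b.

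**Figure D2:**
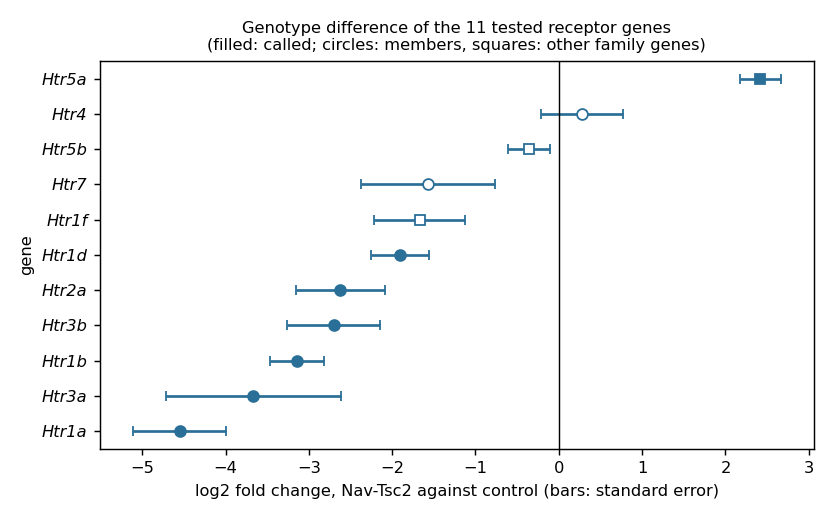
Log2 fold change of Nav-Tsc2 against control for the 11 tested receptor genes, with bars for the standard error. Filled symbols passed the test, circles are the members and squares are other genes of the family. Htr5a lies at 2.42, and the filled circles lie between -4.55 and -1.91.

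Htr3a, the subunit that every serotonin-gated channel contains, was the most abundant serotonin receptor RNA in control cells. Its level was 229.7, 601.2, 139.3 and 330.0 CPM in control replicates 1 to 4, and 0.391, 10.8, 67.1 and 23.8 CPM in Nav-Tsc2 replicates 1 to 4. The groups of mice did not overlap, and Nav-Tsc2 replicate 3 came closest to the controls. The means were 325.1 ± 199.9 CPM in control and 25.6 ± 29.3 CPM in Nav-Tsc2 mice (SD, n = 4), a log2 fold change of -3.67 with a standard error of 1.05 (edgeR adjusted p = 0.0344). This call was lost with the replicate number as a block (edgeR adjusted p = 0.0578), with 24 libraries and the mouse as a random effect (limma adjusted p = 0.0606), and after leaving out any 1 of control mice 1, 2 and 4 or Nav-Tsc2 mice 2 and 4 (edgeR adjusted p between 0.05005 and 0.0968). The log2 fold change stayed between -5.67 and -3.19 in the 16 alternatives.

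The 3 libraries of 1 mouse often differed widely in Htr3a. Nav-Tsc2 replicate 3 had 116.9 CPM in library A and 0.484 and 1.04 CPM in libraries B and C, replicate 4 had 52.1 CPM in library B and 0.603 and 2.50 CPM in A and C, and replicate 2 had 30.2 CPM in library C and 2.04 and 1.95 CPM in A and B. All 3 libraries of replicate 1 were under 1 CPM. Thus 9 of 12 Nav-Tsc2 libraries were below the lowest control library, which was control 3A with 3.66 CPM, and the median library had 332.8 CPM in controls and 1.497 CPM in Nav-Tsc2 mice.

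Htr3b, the partner subunit, also fell. It had 33.3, 79.9, 23.8 and 21.5 CPM in control replicates 1 to 4 and 3.48, 12.5, 5.16 and 3.22 CPM in Nav-Tsc2 replicates 1 to 4. No Nav-Tsc2 mouse reached the lowest control mouse. The log2 fold change was -2.70 with a standard error of 0.56 (edgeR adjusted p = 0.00832), and the call was kept in all 16 alternatives. In the mice with at least 20 counts, the library with the most counts of the gene held, in Nav-Tsc2 mice, a median of 50.4% of a mouse's Htr3b counts and 96.4% of its Htr3a counts, from 4 and 3 such mice. In control mice it held 49.5% and 50.2%, from 4 mice each.

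The balance of the subunits varied among Nav-Tsc2 mice. Per kilobase of exon (RPKM), the log2 ratio of Htr3b to Htr3a was -2.996, -3.12, -2.76 and -4.15 in control replicates 1 to 4, so that Htr3a was the larger in every control. In Nav-Tsc2 mice the log2 ratio was 2.94, -0.01, -3.91 and -3.10, so that replicate 1 alone had more Htr3b than Htr3a. The difference in the mean log2 ratio was 2.24 (two-sided exact permutation test, p = 0.286, n = 4 per genotype, smallest possible p = 0.0286). It was 0.92 without Nav-Tsc2 replicate 1 and 3.20 without Nav-Tsc2 replicate 3. Across the 24 libraries, deviations of Htr3a and Htr3b from their genotype means had r = 0.52, on log2(CPM + 1).

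**Figure D3:**
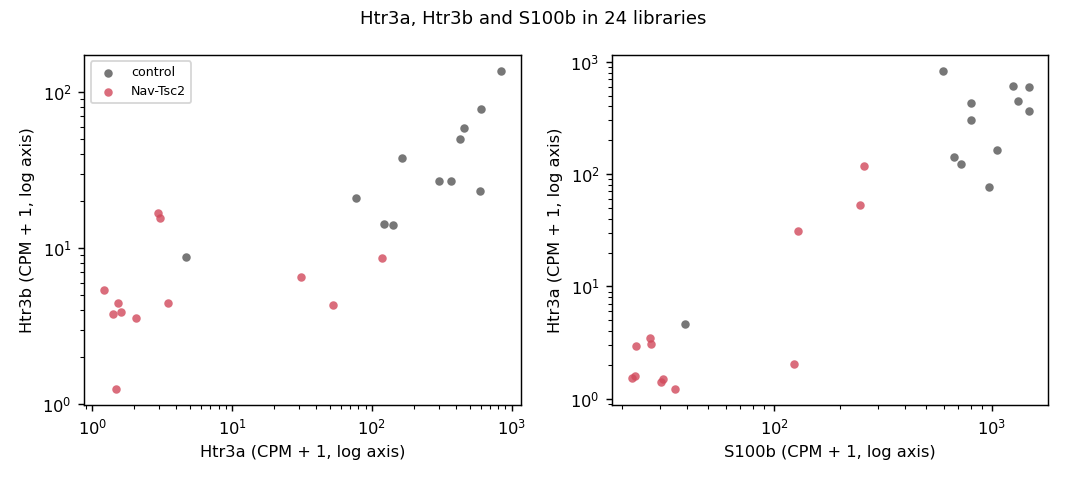
Htr3b against Htr3a (left) and Htr3a against S100b (right) in the 24 libraries, as CPM + 1 on log axes, colored by genotype. In the left panel 9 Nav-Tsc2 libraries sit at the low end of Htr3a below all controls, and 3 reach 30.2 CPM or more.

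Among the Gi/o-coupled receptors, Htr1a was lower in Nav-Tsc2 mice. It had 10.6, 18.6, 24.2 and 14.5 CPM in control replicates 1 to 4 and 1.30, 0.655, 0.147 and 0.812 CPM in Nav-Tsc2 replicates 1 to 4. The control mice were all above 10 CPM and the Nav-Tsc2 mice all below 2 CPM, 3 of them below 1 CPM. This was a log2 fold change of -4.55 with a standard error of 0.56 (edgeR adjusted p = 0.000622), and the call was kept in all 16 alternatives. Htr1a was detected in all 12 control libraries, at 2.19 to 33.3 CPM, and in 9 of 12 Nav-Tsc2 libraries, where 3 had no count.

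Htr1b, the inhibitory autoreceptor and heteroreceptor of many nerve terminals, was the most abundant Gi/o-coupled member in controls. It had 66.3, 49.0, 36.4 and 31.5 CPM in control replicates 1 to 4 and 4.92, 6.63, 2.87 and 6.35 CPM in Nav-Tsc2 replicates 1 to 4. Every control mouse was above 30 CPM and every Nav-Tsc2 mouse below 7 CPM. Htr1b thus had a log2 fold change of -3.14 with a standard error of 0.32 (edgeR adjusted p = 0.000249) and was called in all 16 alternatives. Of the 12 Nav-Tsc2 libraries, 10 were below the lowest control library. The antisense gene D430036J16Rik overlaps 18.0% of the exon length of Htr1b and also fell (log2 fold change -3.18, edgeR adjusted p = 0.00151), and without strand information the reads of the shared stretch cannot be told apart.

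Htr1d, a close relative of Htr1b, fell less. It had 7.51, 10.9, 25.5 and 14.6 CPM in control replicates 1 to 4 and 3.64, 3.49, 4.25 and 4.198 CPM in Nav-Tsc2 replicates 1 to 4. The groups of mice did not overlap, and the Nav-Tsc2 mice were within 1 CPM of each other. The log2 fold change was -1.91 with a standard error of 0.35 (edgeR adjusted p = 0.00453). The call was lost with 24 libraries and the mouse as a random effect (limma log2 fold change -1.40, adjusted p = 0.248). Control libraries ranged from 0.0632 CPM in 2A to 46.6 CPM in 3B, which alone held 97.8% of the Htr1d counts of control replicate 3.

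Of the Gq-coupled receptors, Htr2a, which sensitizes nociceptors in inflamed tissue, was low in both genotypes. It had 2.66, 6.48, 2.13 and 5.70 CPM in control replicates 1 to 4 and 0.823, 0.442, 1.11 and 0.372 CPM in Nav-Tsc2 replicates 1 to 4. No Nav-Tsc2 mouse reached the lowest control. Its log2 fold change was -2.62 with a standard error of 0.53 (edgeR adjusted p = 0.00762), kept in all 16 alternatives with an adjusted p of at most 0.04996. Htr2b was not tested. Its level was at most 0.235 CPM in a control mouse and at most 0.453 CPM in a Nav-Tsc2 mouse, and 11.8% of its exon length overlaps Psmd1, whose mean was 248.9 CPM in control mice. With no filter on low counts, edgeR gave Htr2b a log2 fold change of 1.44 (adjusted p = 0.455).

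The Gs-coupled members were not called. Htr7 had 3.86, 7.54, 4.07 and 0.422 CPM in control replicates 1 to 4 and 0.391, 0.619, 2.03 and 2.30 CPM in Nav-Tsc2 replicates 1 to 4. The groups overlapped through control replicate 4. The log2 fold change was -1.57 with a standard error of 0.81 (edgeR adjusted p = 0.209), and 2 of 12 control and 3 of 12 Nav-Tsc2 libraries had no count.

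Htr4 had 3.73, 3.20, 16.7 and 13.8 CPM in control replicates 1 to 4 and 10.3, 10.1, 12.8 and 12.3 CPM in Nav-Tsc2 replicates 1 to 4. The Nav-Tsc2 mice lay between the low male and the high female controls. The log2 fold change was 0.28 with a standard error of 0.49 (edgeR adjusted p = 0.744). In males the log2 fold change was 1.56 (standard error 0.24) and in females it was -0.28 (standard error 0.23), a difference of -1.84. The test of that difference gave an adjusted p of 0.163 with edgeR, where 0.00582% of all genes tested passed, and 0.000170 with DESeq2, where 2.03% passed. The difference rests on 2 mice per genotype and sex, and sex cannot be told apart from any other feature shared by replicates 1 and 2.

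No other member passed the test of a genotype difference between the sexes with either tool. For Htr3a the log2 fold change was -6.19 in males and -2.37 in females (edgeR p = 0.0402, adjusted p = 0.506 for the difference), and for Htr7 it was -3.49 and -0.06 (edgeR p = 0.0333, adjusted p = 0.486). The other 4 Gi/o- and Gq-coupled members that fell had negative log2 fold changes in both sexes, at -3.91 in males and -5.33 in females for Htr1a, -3.32 and -2.88 for Htr1b, -1.37 and -2.24 for Htr1d, and -2.85 and -2.40 for Htr2a. Htr3b had -2.82 and -2.43.

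Levels of different receptors were compared per kilobase of exon. In control mice Htr3a was first with 156.1 ± 96.0 RPKM (SD, n = 4) and was separated from Htr3b with 16.4 ± 11.3, the only gap among the first 10 of the 14 family genes. Htr1b followed with 9.69 ± 3.29, then the non-members Htr1f with 8.57 ± 4.21 and Htr5b with 6.95 ± 2.29, and then Htr1d with 4.56 ± 2.43, Htr1a with 3.79 ± 1.29, Htr4 with 1.91 ± 1.41, Htr7 with 1.17 ± 0.85 and Htr2a with 0.757 ± 0.386. From Htr3b down to Htr2a the ranges of the mice of each pair of neighbors in this order overlapped. Htr2b was far below with 0.0381 ± 0.0486.

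In Nav-Tsc2 mice the order of the members was Htr3a with 12.3 ± 14.1 RPKM, Htr3b with 2.52 ± 1.803, Htr4 with 2.32 ± 0.28, Htr1d with 1.22 ± 0.12, Htr1b with 1.10 ± 0.36, Htr7 with 0.393 ± 0.285, Htr1a with 0.162 ± 0.106, Htr2a with 0.123 ± 0.062 and Htr2b with 0.106 ± 0.085. The ranges of Htr4 and Htr1d did not overlap, and those of the other neighbors in this order of members did. Among the 14 family genes, the non-members Htr5b with 5.40 ± 0.91, Htr1f with 2.69 ± 1.75 and Htr5a with 1.44 ± 0.04 RPKM ranked 2, 3 and 6. The 9 members summed to 194.4 ± 105.2 RPKM in control and 20.2 ± 14.02 RPKM in Nav-Tsc2 mice, so the mean in Nav-Tsc2 mice was 10.4% of that in controls.

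Htr3a made up 75.9%, 84.0%, 65.0% and 85.3% of the summed RPKM in control replicates 1 to 4 and 2.81%, 33.7%, 81.1% and 60.5% in Nav-Tsc2 replicates 1 to 4. The difference of the means was -33.0 percentage points (two-sided exact permutation test, p = 0.114, n = 4 per genotype, smallest possible p = 0.0286). Htr4 made up 1.38% ± 1.40 in control and 16.2% ± 10.8 in Nav-Tsc2 mice (SD, n = 4), with a range of 0.190% to 3.31% in controls and 6.54% to 31.6% in Nav-Tsc2 mice. The level of Htr4 itself was 1.91 and 2.32 RPKM and was not called, while the sum it is divided by was 194.4 and 20.2 RPKM.

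**Figure D4:**
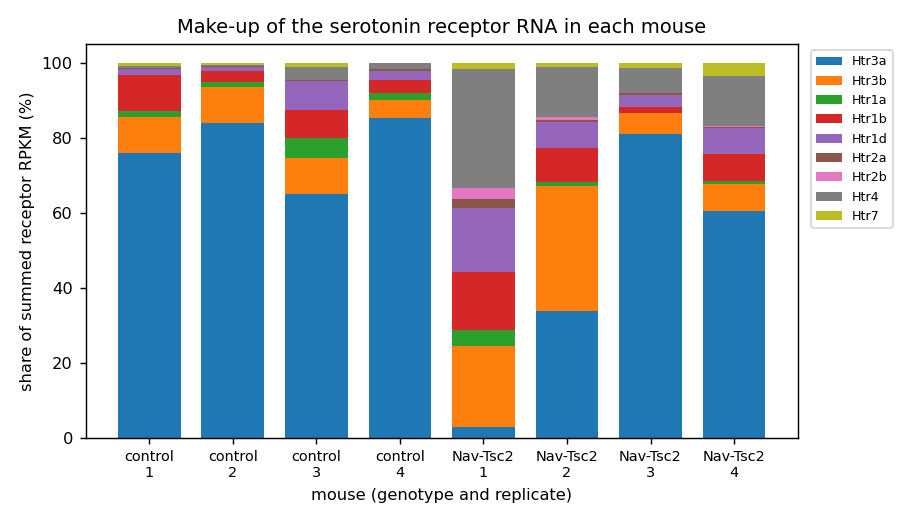
Share of each member in the summed RPKM of the 9 members, as stacked bars to 100%, for each of the 8 mice. Htr3a takes 65.0% to 85.3% of each control bar and 2.81% to 81.1% of the Nav-Tsc2 bars. The Htr4 share is larger in the Nav-Tsc2 bars, whose summed RPKM is lower, while the Htr4 level was not called.

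Another 5 genes of the receptor family were measured. Htr5a, a Gi/o-coupled receptor, was the only one that passed the test, and it was higher in Nav-Tsc2 mice. It had 1.51, 1.06, 1.66 and 1.55 CPM in control replicates 1 to 4 and 7.45, 7.98, 7.82 and 7.70 CPM in Nav-Tsc2 replicates 1 to 4. All 12 Nav-Tsc2 libraries were above the highest control library, the log2 fold change was 2.42 with a standard error of 0.25 (edgeR adjusted p = 0.000252), and the call was kept in all 16 alternatives. Htr1f, the third triptan target, had means of 22.1 ± 10.8 CPM in control and 6.93 ± 4.52 CPM in Nav-Tsc2 mice (SD, n = 4), a log2 fold change of -1.67 that missed the threshold (edgeR adjusted p = 0.0563). It was called with DESeq2 (adjusted p = 0.00619), without control replicate 1 (edgeR adjusted p = 0.0243) and without Nav-Tsc2 replicate 3 (edgeR adjusted p = 0.0297). Htr5b had 13.4 ± 4.43 and 10.5 ± 1.76 CPM (log2 fold change -0.36, edgeR adjusted p = 0.357). Htr6 was at most 0.305 CPM in any mouse. Htr2c had 0 counts in all 24 libraries, which allows at most 0.0136 CPM in controls and 0.0135 CPM in Nav-Tsc2 mice at 3 counts, for counting error only.

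Of 8 genes that make, move and break down serotonin, all tested, 3 were higher and none was called lower. Slc6a4, the transporter that takes serotonin back into cells, had 0.220, 0.265, 1.32 and 0.161 CPM in control replicates 1 to 4 and 15.5, 16.1, 5.55 and 13.0 CPM in Nav-Tsc2 replicates 1 to 4 (log2 fold change 4.66, edgeR adjusted p = 0.00192). Maoa, the enzyme that degrades serotonin, had 102.7 ± 5.19 and 210.2 ± 25.4 CPM (SD, n = 4), a log2 fold change of 1.03 (edgeR adjusted p = 0.000184). Slc18a1, a vesicular monoamine transporter, had 1.38 ± 0.39 and 3.69 ± 0.80 CPM, a log2 fold change of 1.42 (edgeR adjusted p = 0.0180). That call was lost without Nav-Tsc2 replicate 1 (edgeR adjusted p = 0.0629). Slc18a2, a transporter of the same kind, had means of 71.4 CPM in control and 62.7 CPM in Nav-Tsc2 mice. It was not called (log2 fold change -0.19, edgeR adjusted p = 0.184). Tph1 and Tph2, the rate-limiting enzymes of synthesis, had means of at most 2.64 CPM in either genotype and were not called. Ddc, the next enzyme of synthesis, had 3.14 ± 2.77 CPM in control and 0.496 ± 0.581 CPM in Nav-Tsc2 mice (SD, n = 4) and was not called either (edgeR adjusted p = 0.123).

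Downstream of the receptors, 2 of 8 tested Gi/o effectors were lower and none was higher. Kcnj3, a subunit of the potassium channel opened by Gi/o-coupled receptors, had 28.2 ± 7.90 and 10.3 ± 0.92 CPM (SD, n = 4), a log2 fold change of -1.45 (edgeR adjusted p = 0.000955). Gnai1, an inhibitory G protein subunit, fell by 0.63 on the log2 scale (edgeR adjusted p = 0.0347), a call lost in 7 of 16 alternatives, among them the replicate block (edgeR adjusted p = 0.0887) and leaving out any 1 of control mice 1, 2 and 4 or Nav-Tsc2 mice 1, 2 and 4. The other listed Gi/o genes, Gnai2, Gnai3, Gnao1, Gnaz, Kcnj6 and Kcnj9, were not called, and Kcnj5 had no count.

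Of 11 tested Gq effectors, 2 were lower and 1 higher. Plcb1, 1 of the phospholipase C betas that Gq activates, had 43.3, 42.8, 34.2 and 35.4 CPM in control replicates 1 to 4 and 5.99, 9.25, 6.37 and 8.56 CPM in Nav-Tsc2 replicates 1 to 4 (log2 fold change -2.37, edgeR adjusted p = 5.68e-05). Plcb3 (43.8 and 42.2 CPM, edgeR adjusted p = 0.917) and Plcb4 (30.1 and 25.3 CPM, edgeR adjusted p = 0.281) were not called. Prkce, a protein kinase C that acts in nociceptor sensitization, fell by 0.78 on the log2 scale (edgeR adjusted p = 0.00157). Itpr3, a calcium release channel, had a log2 fold change of 1.30 (edgeR adjusted p = 0.0487), a call lost in 12 of 16 alternatives, among them the replicate block (edgeR adjusted p = 0.107) and leaving out any mouse other than control replicate 2 or 4.

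Of 14 tested Gs and cAMP effectors, 1 was higher and none lower. With the replicate block Adcy7, an adenylyl cyclase, was called lower (log2 fold change -3.08, edgeR adjusted p = 0.0311, beside 0.0741 without it). Rapgef3, a cAMP sensor, had 3 counts in all control and 624 in all Nav-Tsc2 libraries, a ratio of counts per total of 206 (95% exact interval 70.3 to 1004, counting error only; edgeR adjusted p = 0.000184). Among 6 genes whose proteins act on serotonin receptors, Arrb1, which encodes a beta-arrestin, was higher (log2 fold change 0.65, edgeR adjusted p = 0.000667), and the chaperone gene Ric3 was not called (0.09, edgeR adjusted p = 0.658). Over these 5 lists, 4 of 47 tested genes were lower and 6 higher, beside the 8.00% and 9.12% of all genes.

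Some cell type markers moved with the genotype. Of 61 tested markers in 15 lists, 10 were lower and 8 higher, beside 8.00% and 9.12% of all genes tested. In the peptidergic list Calca was lower (log2 fold change -1.99), and in the Nppb neuron list 3 of 5 were lower, Nppb (-3.55), Sst and Il31ra. With the replicate block Nppb was no longer called (edgeR adjusted p = 0.0894). Mrgpra3 (-8.58) was lower, 1 of 2 tested in its list, and Th (3.12) was higher, 1 of 3 in the low-threshold C-fiber list, a call that the replicate block also ended (edgeR adjusted p = 0.0766). In the general sensory neuron list Isl1 and Snap25 were lower and Prph was higher, of 7. None of the 4 Mrgprd neuron markers, 5 myelinated neuron, 5 satellite glia, 5 tested Schwann cell and 6 fibroblast markers was called. Mrgprd itself had a log2 fold change of 1.76 (edgeR adjusted p = 0.0935). With the replicate block Mbp, a Schwann cell marker, was called lower (log2 fold change -0.52, edgeR adjusted p = 0.0268).

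All 3 tested endothelial markers (Flt1, Kdr and Ly6c1) were higher, as were 2 of 4 pericyte and smooth muscle markers (Acta2 and Pdgfrb) and 1 of 4 macrophage markers (Cx3cr1). The summed endothelial level was 0.633 to 1.85 CPM in controls and 7.46 to 19.9 CPM in Nav-Tsc2 mice, while of the 3 endothelial markers too low to test Cldn5 was below 0.1 CPM in every mouse, Pecam1 had means of 0.422 and 0.315 CPM, and Emcn had 0.384 and 0.0309 CPM. The summed macrophage level was 0.669 to 3.92 and 7.90 to 17.3 CPM. Aif1, Cd68 and Csf1r were not called, although every Nav-Tsc2 mouse was above every control for Cd68 and Csf1r. Adgre1 and C1qa, too low to test, had control means of 0.196 and 0.0201 CPM and Nav-Tsc2 means of 0.102 and 0.0212 CPM. Of the pericyte and smooth muscle markers, Rgs5 and Notch3 were not called. Myh11, too low to test, had means of 0.246 and 0.0294 CPM. In the mast cell list Kit was lower, 1 of 2 tested, with means of 113.3 CPM in control and 17.0 CPM in Nav-Tsc2 mice. The rest of that list was far below Kit. Cpa3 had 1.10 and 0.152 CPM and was not called, and Cma1 had 0.570 and 0 CPM. Fcer1a, Mcpt4 and Tpsb2 had 0 counts in every library. Which cells held the Kit RNA was not tested. In the platelet list Itga2b was the only gene tested and was lower. The part of these markers in the receptor differences was not tested.

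Members also varied between libraries of 1 genotype, and the genes that varied most like each member from library to library were listed. The measure was Pearson's r of deviations from the genotype mean on log2(CPM + 1) over 24 libraries, which share depth and mouse, among 8438 genes with a mean of at least 10 CPM. Taking the highest r of so many genes yields high values by itself, and the level that chance gives was not estimated. Partners of Htr4 were Ppp1r1a (r = 0.87, at 0.95 in control and 0.04 in Nav-Tsc2 libraries) and Ptgdr (0.87, at 0.88 and 0.83). Among the first genes of the marker lists, Htr4 had r = 0.85 with Mrgprd, the receptor that names a class of nonpeptidergic nociceptors, 0.70 with Nppb, a peptide of itch neurons, -0.76 with Mrgpra3 and -0.61 with Calca. In control libraries alone these were 0.88, 0.81, -0.80 and -0.70, and in Nav-Tsc2 libraries alone 0.72, 0.30, 0.07 and -0.31. Taken as deviations from the mean of each mouse, they were 0.67, 0.81, -0.60 and -0.15. In control replicates 1 to 4, Mrgprd was at 56.0, 21.9, 324.8 and 232.7 CPM, low in the males and high in the females like Htr4, and it was at 486 to 598 CPM in Nav-Tsc2 mice.

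Htr3a varied most like S100b (r = 0.85), Chp2 (0.84) and Cpne6 (0.84). S100b had means of 939.0 CPM in control and 98.6 CPM in Nav-Tsc2 mice (log2 fold change -3.25, edgeR adjusted p = 0.00218). Htr3b varied most like Nrg1 (0.75), Pkd2l2 (0.71) and Lrwd1 (0.70), which had 0.71, 0.70 and 0.86 in control and 0.80, 0.72 and 0.39 in Nav-Tsc2 libraries. Htr1b varied most like Alcam (0.79), Calca (0.77) and Armc1 (0.76), and Calca, which encodes the peptide CGRP, had means of 10162 and 2557 CPM. Htr1d varied most like Atp2b2 (0.80), Slitrk5 (0.71) and Ntrk3 (0.70), the last 1 of the myelinated neuron markers. The r with Ntrk3 was 0.79 in control and 0.35 in Nav-Tsc2 libraries, with Slitrk5 0.89 and 0.32, and with Atp2b2 0.83 and 0.69. With Nefh, the first gene of that marker list, Htr1d had r = 0.39, at 0.59 in control and -0.47 in Nav-Tsc2 libraries.

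Htr7 varied most like Cplx1 (0.77), Sorl1 (0.76) and Ank1 (0.71), Htr1a like Ppp1r21 (0.72), Pde4c (0.69) and Ttc17 (0.67), and Htr2a like Cntnap2 (0.70), Cybc1 (0.69) and Scn4b (0.69). The gene ranked 5 for Htr1a also had r = 0.67. In Nav-Tsc2 libraries alone, r was 0.61 for each Htr7 partner, 0.81, 0.45 and 0.63 for those of Htr1a, and 0.70, 0.24 and 0.43 for those of Htr2a. From the mean of each mouse, the Htr2a partners had r = 0.66, 0.54 and 0.38. Among members, Htr3a and Htr3b had the highest r (0.52), followed by Htr1b and Htr3b (0.45), while Htr4 and Htr1b had the lowest (-0.32). Taken as deviations from the mean of each mouse, r was 0.56, 0.29 and -0.06 for these pairs, and the highest and lowest were Htr3b with Htr4 (0.63, against -0.05 from the genotype mean) and Htr1a with Htr7 (-0.30). Htr2b, below 1 CPM, was left out.

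**Figure D5:**
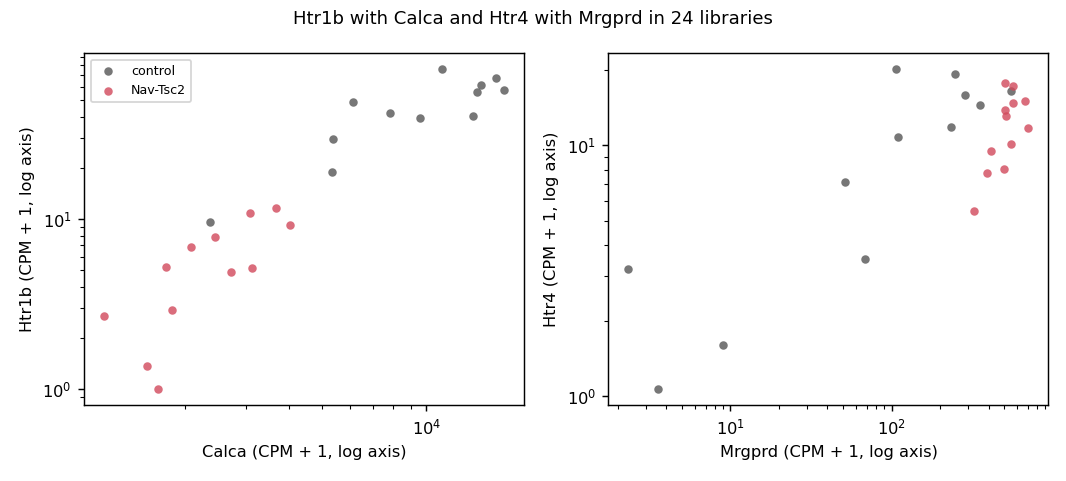
Htr1b against Calca (left) and Htr4 against Mrgprd (right) in the 24 libraries, as CPM + 1 on log axes, colored by genotype. Htr1b and Calca fall together from control to Nav-Tsc2 libraries, while the Nav-Tsc2 libraries lie within the control range for Htr4 and at 322.9 to 705.8 CPM for Mrgprd.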

How the data were processed

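RNA-seq was analysed from 24 libraries made with the SMARTer Ultra Low kit, which does not mark strand, and sequenced as single reads. The authors aligned reads to mm10 with STAR, made the counts with HTSeq and deposited 1 raw count per gene and library; versions and the strand setting are not given in the sources used here. The authors' own table of DESeq2 comparisons (normalized counts, fold changes and p-values) was not used.

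Counts were summed over the 3 libraries of each mouse. Genes were kept with filterByExpr, scaled by TMM and tested with edgeR 4.0.16 (quasi-likelihood test, Benjamini-Hochberg adjustment, R 4.3.3). Calls needed an adjusted p under 0.05 together with an absolute log2 difference above 0.5. Standard errors came from the log2 difference and the F statistic, as their quotient after taking the root of F. CPM used the TMM library sizes, and RPKM divided CPM by the exon length in GENCODE (GRCm38). Of 47643 identifiers, 47224 matched a symbol. Rows that name no gene (reads outside genes, ambiguous or aligned to several places) stayed out of all totals, and their share was 47.6% to 55.9% of each library. DESeq2 1.42.0 and limma 3.58.1 were used in alternatives: DESeq2, DESeq2 size factors, no filter on low counts, the replicate block, sex as a covariate, a limma fit of the 24 single libraries with a random term for the mouse, and leaving out each mouse. The deepest and the shallowest library were left out as alternatives chosen after seeing the data.

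Equal replicate numbers mark the same sex. Over 8445 genes, deviations from the genotype mean correlated between mice of the same number at 0.184, 0.185, 0.108 and 0.199, all above 0.1. Mice of different numbers were not compared, and equal numbers share sex, so these values cannot show that the mice were paired. The main fits and the permutation tests left the mice unpaired, and the replicate block was run as an alternative. The labels do not say that mice of 1 number were littermates. The 3 libraries of a mouse were technical and were not counted as replicates in the main tests. The limma alternative fitted the 24 libraries with an estimated correlation of 0.0785 between libraries of a mouse. The library correlations are descriptions without a p-value.

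The members, lists and tests were chosen with earlier results of these data known. The genes named were Tsc2, the serotonin receptor genes, up to 3 called genes with the smallest adjusted p in each of 5 pathway lists, the first gene of each of 15 marker lists and the 3 genes most like each member. Other marker genes, Tph1, Tph2, Ddc, Slc18a2, Ric3, the uncalled effectors, Adcy7, D430036J16Rik and Psmd1 were named after their values were seen. Some genes that meet the rule are left out of the text. The edgeR fit was also run on simulated counts, drawn with the spread of the control mice for both genotypes. The outcome of that run is not reported here, and no call rests on it. Promoter windows came from RefSeq (GRCm38.p6), which had entries for 7 members outside chromosome 18.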

Additional observations from a re-analysis of the deposited data

Results flagged for a closer look

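Htr4 was flagged because its genotype difference had opposite directions in the sexes: every male Nav-Tsc2 mouse was above every male control, and every female Nav-Tsc2 mouse was below every female control. The log2 fold change was 1.56 (standard error 0.24) in males and -0.28 (standard error 0.23) in females, so the female decrease was little more than its standard error. The female minus male difference in log2 fold change was -1.84 (edgeR adjusted p = 0.163, DESeq2 adjusted p = 0.000170, n = 2 per genotype and sex). Mrgprd, which varied with Htr4 across libraries, also had lower levels in the male than in the female controls, and its part in the difference was not tested.

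Single mice stood far from the other 3 of their genotype in 3 pathway genes. Slc6a4 had 1.32 CPM in control replicate 3 and 0.161 to 0.265 CPM in the other controls. Itpr3 had 18.0 CPM in Nav-Tsc2 replicate 4 and 10.6 to 11.8 CPM in the other Nav-Tsc2 mice. Arrb1 had 165.2 CPM in Nav-Tsc2 replicate 4 and 174 to 176 CPM in the other Nav-Tsc2 mice. In 43 genotype groups of 4 mice examined, chance flags about 1 in 20, or 2.15, and 3 were flagged. No member of the serotonin receptors was among them.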

How the results depend on the processing

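Of the 6 members called lower, Htr1a, Htr1b, Htr2a and Htr3b were called in all 16 alternatives, Htr1d in 15 and Htr3a in 9, and none reversed. Htr4 and Htr7 were called in none. Among the listed genes the replicate block ended the calls of Htr3a, Gnai1, Itpr3, Nppb and Th, added Adcy7 and Mbp, and changed no other call; over all genes it left 1116 lower and 1329 higher, beside 1374 and 1567. With DESeq2, 7 pathway genes were lower in place of 4 and Htr1f was lower, so 1 other receptor in place of 0. Leaving out a mouse gave 0 to 1 lower among the other receptors. Markers called higher numbered 14 with the mouse as a random effect in place of 8. When a mouse was left out they numbered 5 to 10, with 5 without Nav-Tsc2 replicate 2 or 4. The log2 ratio of Htr3b to Htr3a differed by 0.92 to 3.20 when a mouse was left out. The difference in the Htr3a share was between -45.2 and -19.1 percentage points when a mouse was left out, and passed the exact permutation test without Nav-Tsc2 replicate 3 (-45.2, p = 0.0286, n = 4 and 3, the smallest possible). The members with a difference in genotype effect between the sexes numbered 0 with edgeR, 1 with DESeq2 (Htr4) and 3 with no filter on low counts (Htr3a, Htr4 and Htr7). In that last fit, with 618 calls over all genes in place of 1, the estimated prior degrees of freedom were infinite, so a gene's own spread did not enter its test. Htr2b, Htr2c and Htr6 had too few counts for the test.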
